A study of Homo sapiens with 6 samples.

Results

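The erasers and readers of N6-methyladenosine (m6A) examined here are 10 genes, chosen by name from the 31853 genes of the deposited table. They are the demethylases FTO and ALKBH5, the YTH-domain proteins YTHDF1, YTHDF2, YTHDF3, YTHDC1 and YTHDC2, and the KH-domain proteins IGF2BP1, IGF2BP2 and IGF2BP3. Each name matched 1 row, and all 10 were among the 18138 genes with enough counts to be tested. The RNA came from Mon-Mac-6, an established human cell line of monocytic acute leukaemia, and was sequenced as poly(A) RNA in 6 libraries. In 3 of them the cells had received DMSO, the solvent, and in the other 3 they had received WD6305 at 500 nM, both for 48 h. The series title names WD6305 as a METTL3 PROTAC, that is, a bifunctional molecule meant to bring METTL3 to a ubiquitin ligase. No label ties the libraries of a group to separate cultures, so p-values measure only the spread between these libraries, which may be technical. Both groups are the same line, and no genotype or second agent is recorded.

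N6-methyladenosine is placed on messenger RNA by a complex whose catalytic subunit is METTL3, mostly near stop codons and in long exons. Erasers are iron- and 2-oxoglutarate-dependent dioxygenases that take the methyl group off again. Readers bind the mark and pass it on as an outcome: YTHDF proteins act in the cytoplasm, where YTHDF2 recruits the CCR4-NOT deadenylase and speeds decay, YTHDC1 acts in the nucleus on splicing, export and chromatin-bound RNA, YTHDC2 is an RNA helicase best known from the germ line, and IGF2BP proteins stabilise the messages they bind. FTO, ALKBH5, YTHDF2, YTHDC1, IGF2BP2 and IGF2BP3 have each been described as needed for the growth of acute myeloid leukaemia cells.

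Deposited counts summed to between 64525948 and 71155346 per library. Low counts were most frequent at 4, with 1071 to 1176 genes at a count of 4 in a library against 357 to 380 genes at a count of 5, so 1 read pair may be worth 4 counts. All 14 markers of the monocytic line reached a mean FPKM of 1 over the 6 libraries (fragments per kilobase of transcript, scaled to library depth). S100A9 and LYZ were the most abundant. CSF1R reached that mean only through the WD6305 libraries, at 0.68 to 0.78 FPKM with DMSO and 1.68 to 2.27 with WD6305. The sum of the 14 was 8731 to 9262 FPKM with DMSO and 14590 to 16170 FPKM with WD6305, most of it from S100A9, LYZ and ELANE. CD14 was at 9.99 to 10.3 FPKM with DMSO and 7.38 to 8.39 with WD6305, and MPO at 9.4 to 10.1 and 6.67 to 8.35. CEBPA and FCGR1A overlapped between the groups, and the other markers were higher in every WD6305 library. The part of the difference in the sum in the levels below was not tested. Keratinocyte markers summed to 72.4 to 88.6 FPKM in 4 libraries and to 5.52 in DMSO 3 and 3.65 in WD6305 1. Of the 15 listed, 13 were found in the table, and 8 reached a mean FPKM of 1 over the 6 libraries. Fibroblast markers summed to 4.56 FPKM in WD6305 1 and to at most 0.47 in the others, and the markers of B cells, erythroid cells and megakaryocytes summed to at most 1.32 FPKM. Among T and NK cell markers, NKG7 was at 138 to 184 FPKM and KLRD1, the other one found in the table, was listed at 0. The keratin split holds 1 library of each group, so the fold changes and calls of the members, their ratios and the call counts of the gene lists were also computed without DMSO 3 and WD6305 1. In bulk RNA, fewer cells of a type and less RNA per cell cannot be told apart.

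YTHDF2 and YTHDC1 rose under WD6305 and 0 of the 10 genes fell in edgeR, also 0 in DESeq2 and 0 at an unadjusted p under 0.05 (share of all genes not computed). These 2 of 10 (adjusted p under 0.05, edgeR quasi-likelihood test) compare with 23.4% of all tested genes called in either direction and 12.2% called higher, so the share is near the background. FTO, ALKBH5 and YTHDF3 also had every WD6305 library above every DMSO library without passing the test. In all, 5 members lay wholly higher and 1, YTHDF1, wholly lower, where 20.4% and 20.3% of all tested genes did so, 40.8% together. The median log2 fold change of the 10 was 0.22, beside 0.00 over all tested genes. All the changes that passed were small, at about 1.2-fold, with 1.24-fold for YTHDF2 and slightly less for YTHDC1. In DESeq2 5 members were called higher, the first 2 with FTO, ALKBH5 and YTHDF3, where 17.3% of genes were called higher and 34.2% in either direction.

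**Figure D1:**
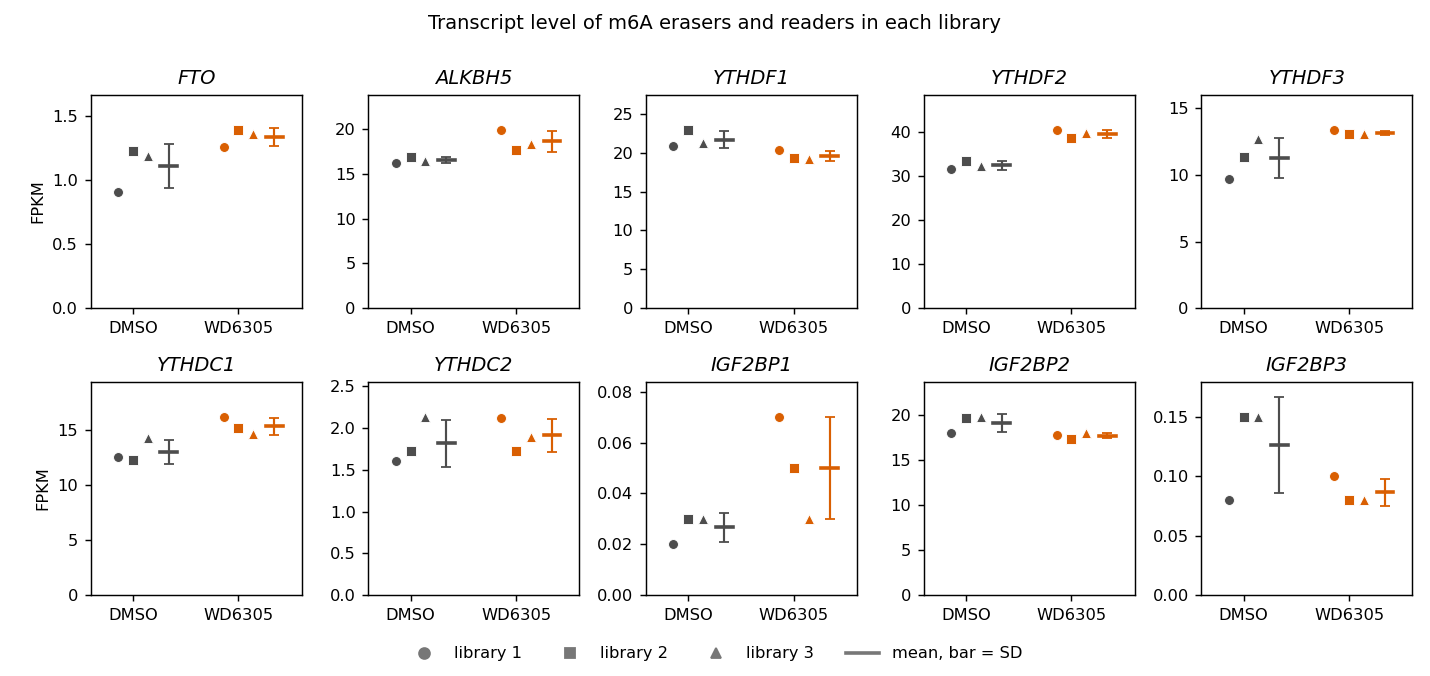
FPKM (vertical axis, starting at 0, with its own scale in each panel) of the 10 erasers and readers in the 3 DMSO and 3 WD6305 libraries; symbols mark the libraries, and the line and bar give the mean and SD. YTHDF2 runs from 31.6 to 33.5 with DMSO and from 38.7 to 40.5 with WD6305, while IGF2BP1 and IGF2BP3 stay at or under 0.15 FPKM in every library.

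YTHDF2, the reader that hands methylated messages to deadenylation, was the most abundant of the 10 and the one with the firmest change. It is encoded on the plus strand of chromosome 1, from 28736621 to 28769775 (GRCh38). Its level was 31.6, 33.5 and 32.4 FPKM in DMSO 1, 2 and 3 and 40.5, 38.7 and 39.8 FPKM in WD6305 1, 2 and 3. The groups were far apart relative to the spread within each (SD 0.954 and 0.894 FPKM, n = 3). The log2 fold change from the counts was 0.31 (SE 0.05, 95% interval 0.21 to 0.42, adjusted p = 0.00154, edgeR quasi-likelihood test). The rise passed in all 17 alternative analyses, with log2 fold changes of 0.28 to 0.34 and adjusted p-values from 1.96e-06 (DESeq2) to 0.0130 (edgeR without WD6305 3). By exact permutation of the libraries (two-sided) p was 0.1, and 3 against 3 cannot go lower. Reads from the near-identical pseudogene YTHDF2P1 were few, at 3 to 18 counts per library against 8580 to 10644 for YTHDF2.

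The promoters of both genes that rose are shown, with that of YTHDC2, a reader that did not pass, beside them. Sequences are RefSeq's on GRCh38.p14, 250 bases before an annotated start on the gene's strand, and 8 of the 10 genes matched the table, all but YTHDF3 and IGF2BP1. Capitals mark matches, on either strand, to the GC box GGGCGG, the CCAAT box, the E-box CACGTG and the cyclic AMP response element TGACGTCA, motifs chosen after the sequences had been read. No matches to different motifs overlap in the windows shown. The windows lie at chr1:28736374-28736623 (plus strand), chr4:68350091-68350340 (minus strand) and chr5:113513444-113513693 (plus strand).
YTHDF2: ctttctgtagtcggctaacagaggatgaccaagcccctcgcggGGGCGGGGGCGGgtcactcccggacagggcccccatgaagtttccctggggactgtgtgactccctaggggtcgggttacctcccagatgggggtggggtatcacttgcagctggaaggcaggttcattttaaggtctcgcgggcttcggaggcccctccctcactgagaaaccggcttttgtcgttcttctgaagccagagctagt
YTHDC1: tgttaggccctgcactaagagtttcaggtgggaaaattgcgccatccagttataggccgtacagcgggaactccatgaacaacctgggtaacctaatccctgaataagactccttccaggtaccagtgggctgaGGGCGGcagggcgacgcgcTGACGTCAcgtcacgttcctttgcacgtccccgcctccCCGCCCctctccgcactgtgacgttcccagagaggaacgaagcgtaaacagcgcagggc
YTHDC2: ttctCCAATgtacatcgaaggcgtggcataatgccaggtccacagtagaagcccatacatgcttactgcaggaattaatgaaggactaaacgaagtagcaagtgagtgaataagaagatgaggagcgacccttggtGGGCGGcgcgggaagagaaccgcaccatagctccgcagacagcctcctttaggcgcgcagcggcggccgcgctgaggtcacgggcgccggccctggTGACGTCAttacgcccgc

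GC boxes were found in all 3 windows, with 2 in each of those of YTHDF2 and YTHDC1 and 1 in that of YTHDC2, and 42.6% of 35116 promoter windows of this length hold at least 1. TGACGTCA, a motif bound by CREB and ATF factors, stood in the windows of YTHDC1 and YTHDC2 and in 1.65% of all windows. Of the pair that shares this element, YTHDC1 was called and YTHDC2 was not, but the ratio of their levels overlapped between the groups. The part of the element in either level was not tested. A second annotated start of YTHDF2 lies 319 bases after the deposited start of the gene, and its window holds 4 GC boxes and a CCAAT box. In the window of YTHDF1 an E-box, which 6.34% of windows hold, stood with 2 GC boxes, and that of IGF2BP3 held 2 E-boxes. A match is a description of letters, and which start was used was not measured.

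YTHDF1 and YTHDF3, the close relatives of YTHDF2, did not pass the test, with fold changes of opposite sign. YTHDF1, described as promoting translation of methylated messages, is read from the minus strand of chromosome 20 between 63195429 and 63216139. Its level was 20.9, 22.9 and 21.2 FPKM with DMSO and 20.4, 19.3 and 19.2 FPKM with WD6305. Every treated library was below every control, by a small margin, and the log2 fold change of -0.12 (95% interval -0.26 to 0.01) did not pass (adjusted p = 0.182, edgeR). YTHDF3, which works with both relatives and lies on chromosome 8, was at 9.69, 11.4 and 12.7 FPKM with DMSO and at 13.4, 13.1 and 13.1 FPKM with WD6305. The treated libraries were nearly equal and all above the controls, which ranged widely, with DMSO 3 close to the treated level. Its log2 fold change was 0.25 (95% interval 0.06 to 0.44, adjusted p = 0.0602, edgeR). Without DMSO 1, the lowest control, the log2 fold change was 0.16 (adjusted p = 0.117, edgeR). It passed without DMSO 3 (adjusted p = 0.00949), without DMSO 3 and WD6305 1 (0.0231), with a term for those libraries (0.0271) and with counts divided by 4 (0.0420), all in edgeR, and in DESeq2 (0.0179).

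The level of YTHDF2 relative to YTHDF1 within a library separated the groups. The FPKM ratio of YTHDF2 to YTHDF1 was 1.51, 1.46 and 1.52 with DMSO and 1.99, 2.01 and 2.07 with WD6305, a 1.35-fold higher ratio. Spread within a group was small (SD 0.0334 and 0.0458, n = 3), and the groups were far apart relative to it. A ratio taken within a library does not depend on how libraries are scaled, and the same ratio from the counts gave the same log2 difference of 0.43. It was 0.46 without DMSO 3 and WD6305 1. The exact two-sided permutation p was 0.1, its smallest value, or 0.5 after Benjamini-Hochberg adjustment over the 5 ratios examined, so no ratio could pass. Of the summed FPKM of the 3 YTHDF genes, YTHDF2 held 49.6% ± 1.01 with DMSO and 54.7% ± 0.423 with WD6305 (SD, n = 3), YTHDF1 held 33.2% ± 1.01 and 27.1% ± 0.414, and YTHDF3 held 17.2% ± 1.85 and 18.2% ± 0.186. Their sum was 62.2, 67.7 and 66.3 FPKM in the controls and 74.2, 71.0 and 72.0 FPKM in the treated libraries.

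**Figure D2:**
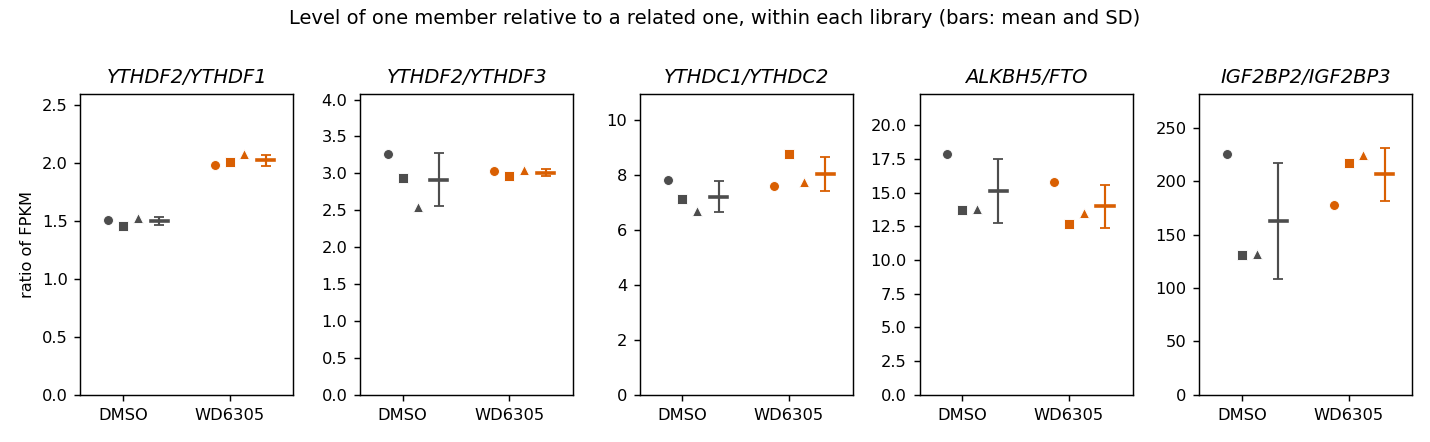
Ratio of FPKM between 2 related members in each library (vertical axis, starting at 0, with its own scale per panel), with the mean and SD of each group; circles, squares and triangles are libraries 1, 2 and 3. YTHDF2/YTHDF1 lies at 1.46 to 1.52 with DMSO and 1.99 to 2.07 with WD6305, and the libraries of the 2 groups overlap in the other 4 panels.

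The other ratios overlapped between the groups. YTHDF2 to YTHDF3 was 3.26, 2.94 and 2.54 with DMSO and 3.03, 2.96 and 3.04 with WD6305 (exact permutation p = 0.7), and its small difference changed sign without DMSO 3. YTHDC1 to YTHDC2 was 6.69 to 7.81 with DMSO and 7.60 to 8.75 with WD6305 (p = 0.3, exact). ALKBH5 to FTO was 13.7 to 17.8 and 12.7 to 15.8 (p = 0.5, exact), and its difference also changed sign, without DMSO 1. IGF2BP2 to IGF2BP3 was 131 to 225 and 178 to 225 (p = 0.4, exact). For all 4 the adjusted p was 0.625 to 0.7.

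YTHDC1, the nuclear reader, was called higher, but less firmly than YTHDF2. Its gene spans chromosome 4, minus strand, 68310387 to 68350090. Its level was 12.5, 12.2 and 14.2 FPKM with DMSO and 16.1, 15.1 and 14.6 FPKM with WD6305. The groups did not overlap, although DMSO 3 came close to WD6305 3. The log2 fold change was 0.26 (SE 0.06, 95% interval 0.12 to 0.40, adjusted p = 0.0176, edgeR). The call was lost in edgeR without DMSO 1, DMSO 2, WD6305 1 or WD6305 2 (adjusted p = 0.0517 to 0.0711), and in limma on FPKM (0.0537 to 0.103). It held without DMSO 3 (0.00423) and without both DMSO 3 and WD6305 1 (0.00692), again in edgeR.

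YTHDC2, the helicase that carries a YTH domain, was low and showed no group difference beyond its spread. From the plus strand of chromosome 5, at 113513694 to 113595285, it gave 1.6, 1.72 and 2.13 FPKM with DMSO and 2.12, 1.73 and 1.89 FPKM with WD6305. The groups overlapped. In FPKM the highest value was in DMSO 3, whereas in depth-scaled counts (CPM) WD6305 1 (24.6) lay above DMSO 3 (23.8). The log2 fold change was 0.10 (95% interval -0.16 to 0.37, adjusted p = 0.594, edgeR), so a change of up to 1.29-fold upward lies inside the interval. In the controls DMSO 3 was the highest library for YTHDF3, YTHDC1 and YTHDC2, and among treated libraries WD6305 1 was the highest for the same 3 genes. This was not particular to them. In FPKM WD6305 1 was also the highest treated library for ALKBH5, YTHDF1, YTHDF2, IGF2BP1 and IGF2BP3, and DMSO 3 the highest control for IGF2BP2. DMSO 3 and WD6305 1 are the libraries low in keratinocyte markers. The part of whatever sets those libraries apart in these levels was not tested, beyond the values given without them.

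Both erasers were higher in each treated library, and neither passed in the main edgeR fit, with all 6 libraries, no added term and the counts as deposited. ALKBH5, a nuclear demethylase, lies on the plus strand of chromosome 17, from 18183078 to 18209954. Its level was 16.2, 16.9 and 16.4 FPKM with DMSO and 19.9, 17.6 and 18.4 FPKM with WD6305, the controls close together and WD6305 1 the highest. The log2 fold change was 0.20 (95% interval 0.05 to 0.34) with an adjusted p of 0.0514 in edgeR. ALKBH5 passed in DESeq2 (adjusted p = 0.0307), with counts divided by 4 (0.0402, edgeR), with the term for DMSO 3 and WD6305 1 (0.0417, edgeR) and without WD6305 2 (0.0494, edgeR). It had an adjusted p of 0.160 without both DMSO 3 and WD6305 1 (edgeR).

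FTO, which also acts on the cap-adjacent mark m6Am, is a long gene on the plus strand of chromosome 16, from 53701692 to 54158512. Its level was 0.91, 1.23 and 1.19 FPKM with DMSO and 1.26, 1.39 and 1.36 FPKM with WD6305. All treated libraries were above the controls, the highest control nearly reaching the lowest treated library. The log2 fold change was 0.30 (95% interval 0.04 to 0.55, adjusted p = 0.0903, edgeR), and without DMSO 1, the lowest library, it was 0.18. FTO passed in DESeq2 alone (adjusted p = 0.0357). RPGRIP1L overlaps FTO on the opposite strand, with counts equal to 6.25% of those of FTO. The sources used here do not say if strand entered the counting, so reads of such antisense pairs cannot be told apart.

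The 7 other AlkB-family dioxygenases, relatives of the erasers with other substrates such as damaged DNA or transfer RNA, gave 0 calls in the main edgeR fit with all 6 libraries and 0 in DESeq2. Of all tested genes 23.4% and 34.2% were called there in either direction. In edgeR 1 of the 7 had an unadjusted p under 0.05, downward, with the share of all genes not computed. The median log2 fold change of the 7 was -0.02, beside 0.25 for the 2 erasers and 0.00 for all tested genes. ALKBH4 and ALKBH2 had the smallest adjusted p-values (0.124 and 0.155, edgeR), with log2 fold changes of -0.31 and -0.28. Without WD6305 2 ALKBH4 was called lower (log2 fold change -0.47, adjusted p = 0.0209, edgeR). ALKBH8 and ALKBH7 had -0.09 and 0.08.

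**Figure D3:**
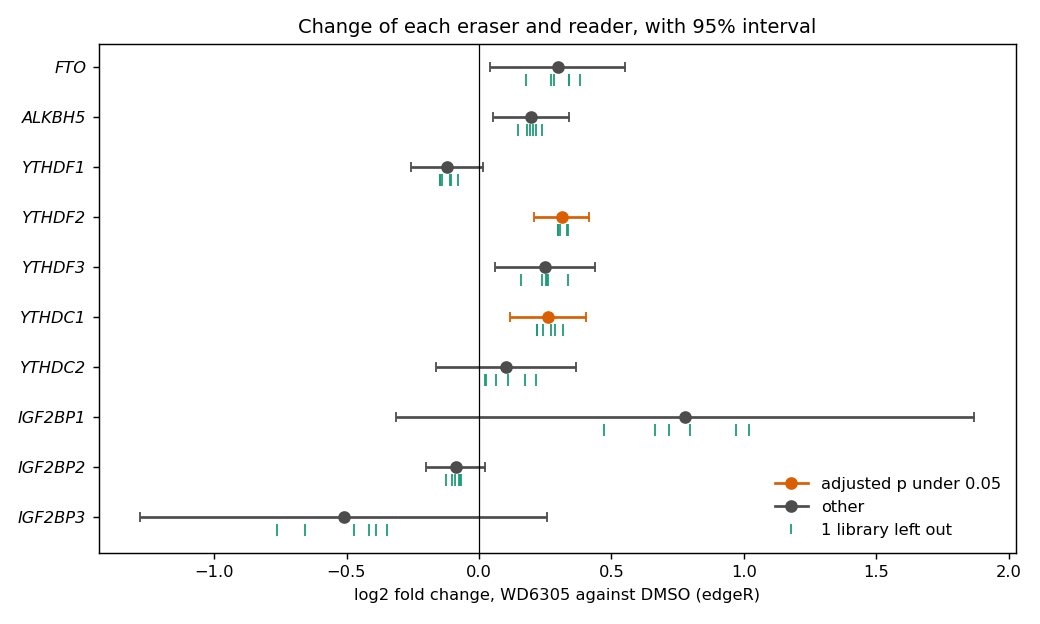
Log2 fold change of each member, WD6305 against DMSO (horizontal axis), with its 95% interval from edgeR; orange marks an adjusted p under 0.05 and green ticks are the values with 1 library left out. YTHDF2 and YTHDC1 are called, the intervals of FTO, ALKBH5 and YTHDF3 also lie above 0, and those of IGF2BP1 and IGF2BP3 are the widest.

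Among the IGF2BP readers IGF2BP2 was practically the only one present. IGF2BP2, which stabilises bound messages and is the family member kept in many adult cells, is a minus-strand gene of chromosome 3 (185643130 to 185825042). Its level was 18.0, 19.7 and 19.8 FPKM with DMSO and 17.8, 17.4 and 18.0 FPKM with WD6305. In FPKM every treated library lay just below DMSO 1, the lowest control, whereas in CPM, the scale of the overlap counts above, DMSO 1 (102.13) lay below WD6305 3 (102.85). The log2 fold change was -0.09 (95% interval -0.20 to 0.02, adjusted p = 0.245, edgeR). IGF2BP2 made up 99.05% to 99.45% of the summed FPKM of the family in every library of both groups.

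IGF2BP1 and IGF2BP3, the oncofetal members, were near the limit of what these libraries measure. IGF2BP1, on the plus strand of chromosome 17 from 48997385 to 49056145, was counted 17, 24 and 18 times in the controls and 44, 33 and 21 times in the treated libraries. At 4 counts per read pair that is 4.25 to 11 read pairs, and WD6305 3 lay among the controls. Its log2 fold change of 0.78 had a 95% interval of -0.31 to 1.87 (adjusted p = 0.292, edgeR). IGF2BP3 (chromosome 7, minus strand, 23310209 to 23470491) was counted 51, 94 and 92 times in the controls and 62, 48 and 51 times in the treated libraries. DMSO 1 was as low as the treated libraries, and the log2 fold change was -0.51 (95% interval -1.28 to 0.26, adjusted p = 0.328, edgeR). MALSU1 overlaps IGF2BP3 on the other strand with 894 to 1242 counts per library, far more than IGF2BP3 itself. Both intervals include 0 and are wide, so small changes of either gene could not be resolved at these counts.

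With DMSO the order of levels by FPKM was YTHDF2, YTHDF1, IGF2BP2, ALKBH5, YTHDC1, YTHDF3, YTHDC2, FTO, IGF2BP3 and IGF2BP1. Neighbours in that order did not overlap between libraries, except YTHDC1 and YTHDF3. With WD6305 ALKBH5 stood above IGF2BP2, and the libraries of YTHDF1 and ALKBH5, and of ALKBH5 and IGF2BP2, overlapped. The steps were uneven: YTHDF3 was 6.20 times the level of YTHDC2 in the controls, and FTO 8.76 times that of IGF2BP3. Among all tested genes ranked by mean FPKM, YTHDF2 lay at percentile 93.9, the 5 next members between 81.5 and 88.7, YTHDC2 and FTO at 48.2 and 42, and IGF2BP3 and IGF2BP1 at 10.9 and 3.32.

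These levels depend on the length behind the FPKM. Deposited counts and FPKM together imply a length of 22634 bases for FTO, close to the 21379 bases of all its annotated exons joined (GENCODE 29) and well over its longest coding transcript of 11766 bases. The same holds for YTHDC2 (11517 implied, longest coding transcript 6316) and IGF2BP3 (9254 and 4250), while YTHDF1 differs little (3403 and 3301). So FTO and YTHDC2 had counts of 1313 to 2178 per library, against 4205 to 4915 for ALKBH5, a smaller gap than that in FPKM. Depth-scaled counts (CPM) per kilobase of the longest coding transcript, a scale chosen after the data had been seen, gave FTO 2.11 ± 0.319 and YTHDC2 3.27 ± 0.442 with DMSO (SD, n = 3). On that scale FTO and YTHDC2 kept ranks 8 and 7, YTHDF2 remained first in both groups and YTHDF1 moved from rank 2 to 4, behind IGF2BP2 and ALKBH5. The implied lengths of all members but IGF2BP1 and IGF2BP3 varied little between libraries.

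The longest coding transcripts of the members differed in how often they carry the m6A consensus. GGACT, a frequent form of it, was counted on the transcript strand in 13033 genes, with a median of 0.936 matches per kilobase. ALKBH5 had 1.46 and IGF2BP2 1.36 per kilobase, YTHDF2 had 1.03, YTHDC1 0.642, and YTHDF1 the fewest, at 0.303. GC content ran from 38.8% in YTHDF3 to 54.9% in ALKBH5, around a median of 49.1% for all. A match shows letters, not a methylated site.

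The writers of the mark held more calls upward than downward. Of 12 genes of the METTL3 complex and of enzymes for other m6A sites, 5 rose and 0 fell in edgeR, where 12.2% of all tested genes rose and 11.2% fell, led by RBM15 (7.75 to 11.4 FPKM) and METTL14 (3.68 to 4.89 FPKM), while WTAP, METTL3 and CBLL1 had log2 fold changes of 0.21, 0.21 and 0.24. In DESeq2 6 rose and 1 fell, where 17.3% of genes rose and 2483 of 14608 fell. At an unadjusted p under 0.05 in edgeR 7 rose and 1 fell, with the share of all genes not computed. WTAP, METTL3 and CBLL1 lost their calls when single libraries were left out (adjusted p up to 0.0730, 0.0931 and 0.109, edgeR). Of the 12, 2 rose without DMSO 2, WD6305 1 or WD6305 3 and 3 without WD6305 2. Over all genes the number called higher also went down, from 2218 to 1643, 1639, 1446 and 1609 in those fits, in that order.

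Calls among other proteins reported to bind or depend on m6A were mostly downward. Of 18, 8 fell and 1 rose, where 11.2% of all tested genes fell and 12.2% rose, with a median log2 fold change of -0.15. SND1, a tudor-domain nuclease, went from 61.0 ± 0.572 to 43.8 ± 1.88 FPKM (log2 fold change -0.46, SE 0.05, adjusted p = 0.00025, edgeR). EIF3B, a subunit of a translation initiation factor, fell from 44.4 to 34.6 FPKM, HNRNPC, a nuclear RNA packaging protein, from 136 to 109 FPKM, and PRRC2A from 93.7 to 73.5 FPKM. Each of these 4 had every treated library below every control. The other 4 that fell, HNRNPA2B1, FXR2, ELAVL1 and LRPPRC, named after their values were seen, all lost their calls without WD6305 3, which left 4 lower. Without DMSO 1 or WD6305 1, 5 fell, and without both DMSO 3 and WD6305 1, 7. Over all genes 2031 fell in the main fit and 1310 without WD6305 3. That number was 1540 without DMSO 1, 1455 without WD6305 1 and 1826 without both DMSO 3 and WD6305 1. RBM33, which works with ALKBH5, was the only one of the 18 to rise, by 0.20 on the log2 scale, and lost its call without WD6305 3 (adjusted p = 0.0516, edgeR); it was chosen after its values were seen.

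Partners of the IGF2BP readers fell in 7 of 12 and rose in 0 in edgeR, beside 11.2% and 12.2% of all tested genes, with a median of -0.23 on the log2 scale. In DESeq2 8 fell and 0 rose, where 2483 of 14608 genes fell and 17.3% rose. At an unadjusted p under 0.05 in edgeR 9 fell and 0 rose, with the share of all genes not computed. PABPC4, a poly(A)-binding protein, went from 20.9 ± 0.404 to 15.4 ± 0.249 FPKM (log2 fold change -0.41, adjusted p = 0.000251, edgeR). YBX1, a cold-shock protein that coats messages, fell from 420 to 315 FPKM, FBL, the nucleolar methyltransferase fibrillarin, from 97.2 to 66.7 FPKM, and DHX9, an RNA helicase, from 66.7 to 53.9 FPKM. UPF1 is counted both here and among the effectors of the YTH readers, and ELAVL1 both here and among the 18 m6A-binding proteins, so these tallies overlap. IGF2BP2 itself had a log2 fold change of -0.09, and its difference from the partners was not tested.

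Effectors of the YTH readers did not move as a block. Of 29 tested, 3 rose and 6 fell, beside 12.2% and 11.2% of all tested genes. The share that rose is near the background, and the share that fell lies above it. The median log2 fold change of the 29 was -0.01. POP1 and RPP40, protein subunits of the RNase P and MRP enzymes that can cut YTHDF2-bound RNA, fell from 9.77 to 6.08 FPKM and from 5.86 to 4.04 FPKM. POP5 of the same enzymes rose from 6.75 to 9.18 FPKM and RPP30 fell from 6.06 to 4.59 FPKM, while POP4, RPP14, RPP25 and RPP38 were not called. RIDA was called lower, by 0.56 on the log2 scale, and lost its call without WD6305 1 or WD6305 3 (adjusted p up to 0.0565, edgeR). RPP30 and RIDA were named after their values were seen. UPF1, the helicase of nonsense-mediated decay, fell from 24.9 to 20.7 FPKM. Of the CCR4-NOT subunits listed, the deadenylases CNOT8 and CNOT6L rose by 0.22 and 0.34 on the log2 scale. Both of these were chosen after their values were seen, and CNOT6L lost its call without DMSO 1, DMSO 2 or WD6305 2 (adjusted p up to 0.0568, edgeR). CNOT7, CNOT6 and CNOT9 of the same complex were not called, with log2 fold changes of -0.01, 0.01 and -0.15. CNOT1, the scaffold that YTHDF2 contacts, had a log2 fold change of -0.05 (adjusted p = 0.519, edgeR).

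Genes reported as reader or eraser targets in leukaemia fell in 7 of 24 tested and rose in 2, beside 11.2% and 12.2% of all tested genes, with a median of -0.06. Without DMSO 2, 6 fell and 1 rose. Over all genes 2031 fell and 2218 rose in the main fit, and 1471 and 1643 without DMSO 2. SLC1A5 and GPT2, glutamine-metabolism genes described as targets of IGF2BP2, went from 121 ± 2.95 to 75.9 ± 3.60 FPKM and from 6.29 to 4.02 FPKM. MYC, described as stabilised by IGF2BP readers, fell from 85.0 to 64.8 FPKM, and RCC2, described as a target of IGF2BP3, from 105 to 83.2 FPKM. MYB, a transcription factor of blood progenitors, rose by 0.32 on the log2 scale; it was chosen after its values were seen and lost its call without DMSO 2 (adjusted p = 0.0523, edgeR). In the oncofetal and let-7-regulated list, of which 3 genes are the IGF2BP readers, 3 of 11 tested rose and 2 fell, beside the same background. Without DMSO 2, WD6305 1 or WD6305 2, and without both DMSO 3 and WD6305 1, 1 rose, and without WD6305 1, 1 fell. Over all genes 1643, 1639, 1609 and 2298 rose in those fits, in that order, and 1455 fell without WD6305 1. HMGA1, a chromatin protein, went from 257 ± 17.5 to 171 ± 3.96 FPKM and CDC25A, a cell-cycle phosphatase, from 14.3 to 12.0 FPKM, while NRAS and ARID3B rose by 0.32 and 0.26 on the log2 scale. CDC25A lost its call without WD6305 1 (adjusted p = 0.0512, edgeR), and ARID3B lost it without any single library but DMSO 1 (adjusted p up to 0.128, edgeR). HMGA2, like IGF2BP1 and IGF2BP3 a classical let-7 target, was at 0.02 to 0.12 FPKM.

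**Figure D4:**
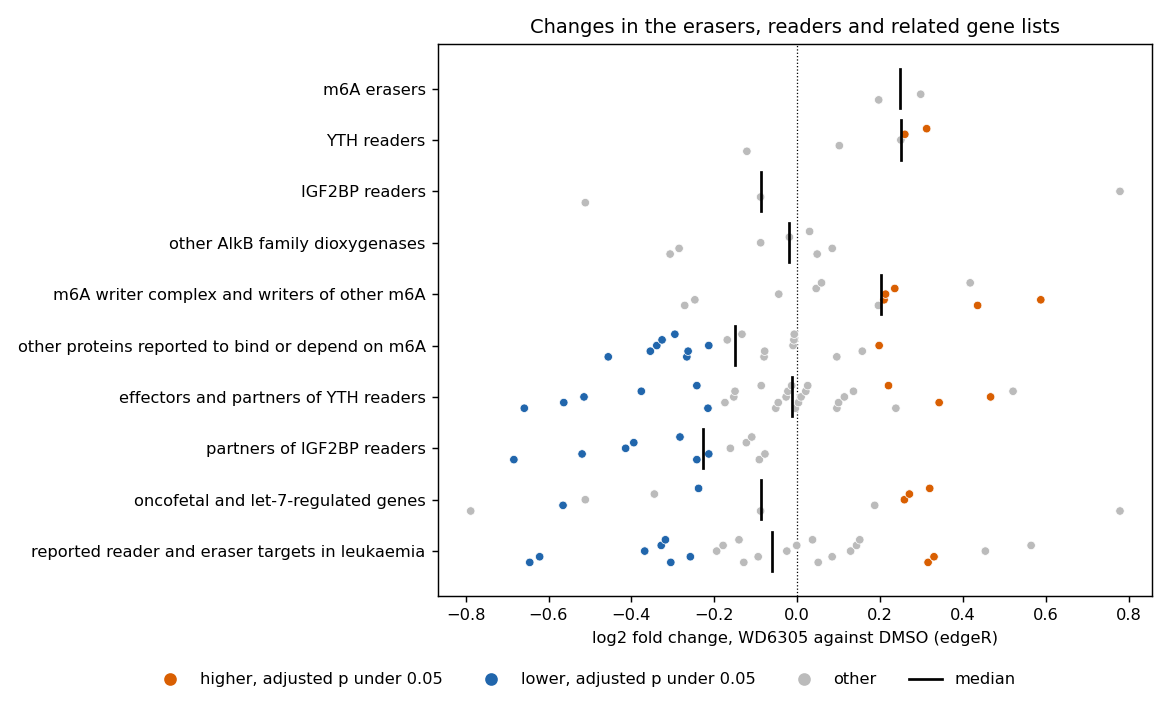
Log2 fold change, WD6305 against DMSO (horizontal axis), of every tested gene in each list (rows), coloured by edgeR call, with the list median as a black line. The medians of the erasers and YTH readers lie at 0.25, those of the IGF2BP partners and other m6A-binding proteins at -0.23 and -0.15.

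The genes whose pattern over the 6 libraries was most like that of a called member were found among 10495 genes with a mean FPKM of at least 1, by the root mean square difference of centred log2 CPM. For YTHDF2 they were OGT, the O-GlcNAc transferase (0.0203), CCDC90B (0.0242) and EMILIN2 (0.0248), where the median gene differed by 0.199. For YTHDC1 they were PCNX1 (0.0155), DPY19L1 (0.0178) and HSP90B1, an endoplasmic reticulum chaperone (0.0199), against a median of 0.193. This likeness describes 6 points that share 2 groups and their library scaling.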

How the data were processed

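Poly(A) RNA was measured in 6 libraries, 3 per group, grouped by the treatment in their titles. The authors deposited estimated counts and FPKM per gene, per the file headers. The submitters' processing notes name HISAT2, StringTie, fastp and edgeR and the build GRCh38, with no settings. The deposited estimated counts are whole numbers, so rounding left them unchanged. Genes were filtered with filterByExpr, scaled by TMM and tested with the quasi-likelihood test of edgeR 4.0.16 (R 4.3.3), two-sided, with no block, and p-values were adjusted by Benjamini-Hochberg over all 18138 genes at 0.05. Intervals cover 95%. DESeq2 1.42.0 and limma 3.58.1 on log2(FPKM + 1) and log2(FPKM + 0.1), scalings, filters, a replicate block and left-out libraries were alternatives. The fits were also run on simulated counts with a fixed spread, below the common spread estimated here, and without the keratin split. That run cannot show how the fits perform on these data. Named genes were all 10 members, up to 4 per other list by smallest adjusted p (all where 5 or fewer passed), and the 3 most similar genes per called member. The members and lists were chosen with earlier results of these data known. Some genes counted in the lists are not reported here by name. The call counts of the gene lists with libraries left out were added after seeing the data.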

Additional observations from a re-analysis of the deposited data

How the results depend on the processing

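The count of called members, 2, was 5 in DESeq2, 4 in edgeR with counts divided by 4 or with a term for DMSO 3 and WD6305 1, and 1 in limma on log2(FPKM + 1), with or without a filter, or log2(FPKM + 0.1). With 1 library left out it was 1 to 3, at 1 without DMSO 1, DMSO 2 or WD6305 1. Over all genes 4249 were called, and 2756 to 4640 with 1 library left out, the lowest without WD6305 3. YTHDF2 passed in all 17 alternatives, and no member changed sign in any alternative that gave it a value. The log2 difference of the YTHDF2/YTHDF3 ratio turned from 0.05 to -0.04 without DMSO 3 (-0.040) and without DMSO 3 and WD6305 1 (-0.044), and that of ALKBH5/FTO from -0.11 to 0.016 without DMSO 1; the cause was not tested. With 1 library left out these 2 differences ran from -0.04 to 0.14 and from -0.20 to 0.02. With the replicate number as a block, 2 members and 3204 genes were called, and no call of a member changed. Deviations of same-numbered libraries from their group means correlated at -0.21, 0.05 and -0.12 over 18138 genes. The largest correlation was 0.24, between DMSO 3 and WD6305 1. Deviations cancel within each group, so the correlations depend on one another and cannot decide if the numbers pair the libraries. Depth limits IGF2BP3 and IGF2BP1, the latter with perhaps 4.25 to 11 read pairs per library.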
